A study of Mus musculus with 4 samples.

Results

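Ficolin A (Fcna) and 9 C-type lectin receptors (Mrc1, Mgl2, Clec10a, Cd209a, Cd209d, Cd209f, Clec4n, Clec4d and Clec4e) were followed through the CD45+CD11b+ cells of mouse ovaries at 15 and 3 months of age. The 10 genes were taken by symbol from the 31053 genes of the count matrices. They were picked with their age differences in macrophages already known, so the age values in macrophages are given as a description without a test.

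The ovaries came from virgin wild-type C57BL/6J mice. The 15-month group was harvested at 14 to 17 months from 5 animals, and the 3-month group at 2 to 3 months from 6 animals. In each group the animals were divided over 3 pools marked with hashtag antibodies. The design text gives 2 mice per pool, so with 5 animals 1 of the 15-month pools held fewer, and the labels used here do not show which. All pools of an age were joined before 1 sort and 1 droplet library, with 8000 cells as the target. With 1 library for each age, effects of age and of library cannot be told apart, and p-values below measure the spread between pools within a library.

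The 15-month library held 4939 barcodes with a median of 6949 UMIs (unique molecular identifiers, counted RNA molecules), and the 3-month library held 3135 barcodes with a median of 7472. After filters on cell quality and on a clear hashtag, 4100 cells at 15 months and 2181 at 3 months remained. Pools 1, 2 and 3 held 767, 2437 and 896 cells at 15 months and 725, 479 and 977 cells at 3 months, and pool values below follow that order. The pools stood apart in haemoglobin RNA, which took at most 0.0224% of all UMIs of a pool at 15 months and at least 0.274% at 3 months. Both libraries shared 3 barcodes, of which 2 were among the kept cells. Ptprc, which encodes CD45, had a UMI in 87.6% of the kept cells, and Itgam, which encodes CD11b, in 52.6%. The clusters of stromal, luteal and epithelial cells had Itgam in 24.4%, 14.0% and 13.3% of cells, which does not match the sort.

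C-type lectins are receptors that bind sugars through a calcium-dependent recognition domain. Fcna encodes a soluble ficolin, a plasma protein that binds sugar patterns through a fibrinogen-like domain and starts the lectin pathway of complement. Mrc1 (CD206) is the mannose receptor, an endocytic receptor widely used to mark tissue macrophages. Mgl2 (CD301b) and Clec10a (CD301a) are the mouse galactose-type lectins. Cd209a, Cd209d and Cd209f belong to the mouse family related to human DC-SIGN. Clec4n (Dectin-2), Clec4d (MCL) and Clec4e (Mincle) bind microbial glycans or glycolipids and signal through the Fc receptor gamma chain, Syk and Card9.

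The genes lie on 4 chromosomes of the GRCm38 assembly, with positions from GENCODE M21. Fcna is at chr2:25624666-25628030 on the minus strand and Mrc1 at chr2:14229392-14332057 on the plus strand. An antisense gene, Fcnaos, overlaps Fcna and is counted in the same matrices, so Fcna counts rest on how the counting used strand. The gene pair Mgl2 (chr11:70130329-70137550) and Clec10a (chr11:70156197-70170834) lies on the plus strand with 18646 bases between them. Clec4n (chr6:123229843-123247021, plus), Clec4d (chr6:123262111-123275265, plus) and Clec4e (chr6:123281789-123289870, minus) are direct neighbours with gaps of 15089 and 6523 bases. Cd209a (chr8:3743397-3748984), Cd209d (chr8:3871824-3878555) and Cd209f (chr8:4102787-4105835) lie on the minus strand with Cd209e, Cd209b and Cd209c among them. No stretch of 31 bases was shared between members within the last 500 bases of their transcripts, which is the end that the 3' libraries read.

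Promoter sequences of RefSeq (GRCm38.p6) matched 8 of the 10 members. Those of Fcna and Cd209f are shown because most RNA of each sat in few cells. Fcna was seen in all 7 cells with 10 or more Cd209f UMIs, but Cd209f in only 6 of the 20 cells with 10 or more Fcna UMIs. Those of Clec4d and Clec4e are shown because these neighbours were highest in the same cell class. Each line gives the 150 bases before the outermost annotated start, 5' to 3' on the gene's own strand, with motif matches in capitals. The windows are chr2:25628031-25628180 (minus) for Fcna, chr8:4105836-4105985 (minus) for Cd209f, chr6:123261957-123262106 (plus) for Clec4d and chr6:123289872-123290021 (minus) for Clec4e.
Fcna: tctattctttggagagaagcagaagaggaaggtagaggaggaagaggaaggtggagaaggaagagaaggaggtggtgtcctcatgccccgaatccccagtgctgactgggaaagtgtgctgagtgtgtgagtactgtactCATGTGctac
Cd209f: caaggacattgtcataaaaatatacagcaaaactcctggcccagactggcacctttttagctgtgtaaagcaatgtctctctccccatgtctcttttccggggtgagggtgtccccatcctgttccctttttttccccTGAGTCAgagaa
Clec4d: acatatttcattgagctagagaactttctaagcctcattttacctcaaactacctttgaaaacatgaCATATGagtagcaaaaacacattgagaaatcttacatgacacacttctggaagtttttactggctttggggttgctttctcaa
Clec4e: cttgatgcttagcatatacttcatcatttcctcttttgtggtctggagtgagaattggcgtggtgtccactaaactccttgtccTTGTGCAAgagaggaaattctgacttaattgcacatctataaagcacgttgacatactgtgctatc
The motifs were searched on both strands of the 250 bases before the RefSeq start of 32851 promoters. The capitals in Cd209f match the AP-1 letters TGANTCA, which 6.75% of the promoters hold, and those in Clec4e match the C/EBP letters TTGCNNAA (9.56%) on the other strand. The capitals in Fcna and Clec4d match the E-box letters CANNTG, which 66.2% of the promoters hold. The PU.1 letters GAGGAAGT (2.44%), the NF-kB motif (1.21%) and the STAT letters TTCNNNGAA (7.02%) were not found in the windows of the 8 matched members. A match of letters describes the sequence and shows no bound factor.

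The cells were clustered without the 10 members, and clusters were named from marker lists. Levels are CPM, UMIs of a gene scaled to the same total number of UMIs of a class within a pool, for pools with at least 10 cells of that class, and means are over such pools with the SD between them. Because the classes come from the same cells, the order of classes is a description. Macrophage markers led in 5 clusters: the named macrophage-like class (586 cells), cluster 0 led by Ms4a6b and Ccr2 (871 cells), cluster 1 led by Spp1 and Arg1 (723 cells), cluster 12 led by Lipg and Fcgr4 (169 cells) and cluster 18 led by Saa3, Prg4 and Cxcl13 (41 cells). Only the first kept the name, and the 5 together, 2390 cells, are called macrophage-scoring cells.

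**Figure D1:**
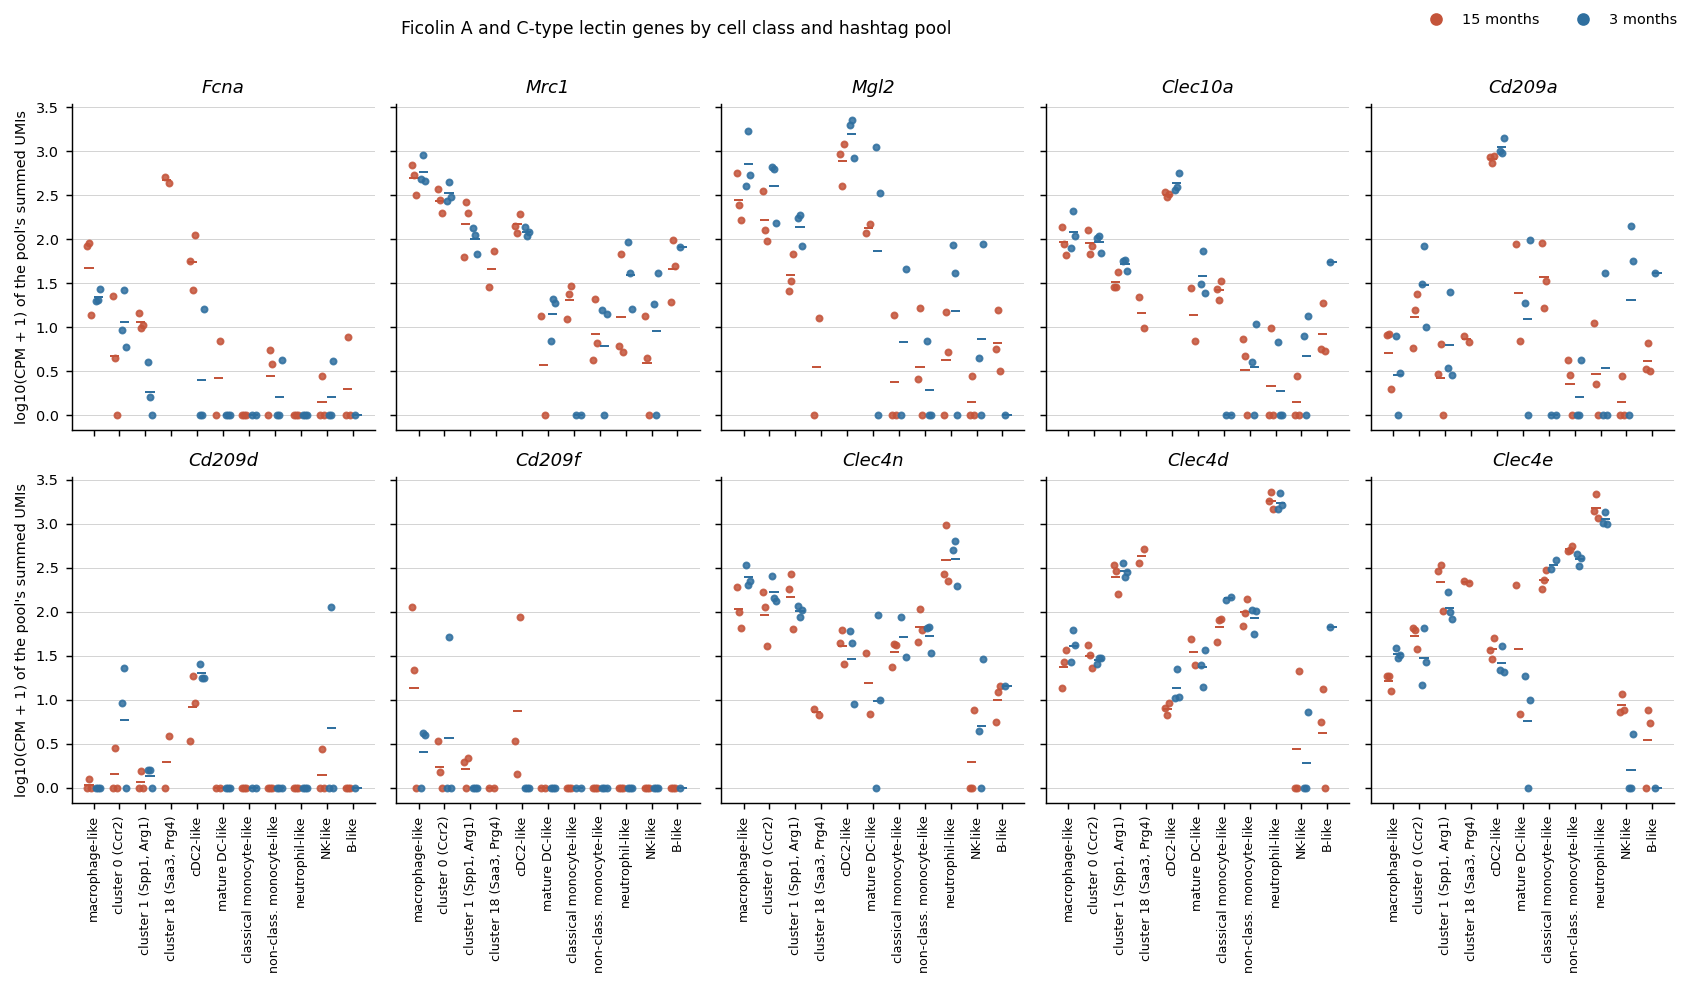
Level of each of the 10 genes in each cell class, as log10(CPM + 1) per pool, for pools with at least 10 cells. Points are pools, with 15 months left of 3 months, and dashes are the means of the plotted values. Clec4d and Clec4e stand highest in neutrophils, Cd209a, Clec10a and Mgl2 in type 2 dendritic cells, and Mrc1 in macrophages.

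Fcna, the soluble member, was highest in cluster 18, a small group with Saa3, Prg4 and Alox15, genes of serous cavity macrophages, among its top genes. Its level there was 500.2 and 437.7 CPM in 15-month pools 1 and 2, the only pools with at least 10 of these cells. In the remaining pools with any, it was 488.2 CPM in 2 cells of the third 15-month pool, and 392.3 CPM in 4 cells and 335.3 CPM in 2 cells of 3-month pools 2 and 3. Every pool that held such cells thus had a high Fcna level in them. The 7 serous cavity markers summed to 19020 CPM in cluster 18, against 13.1 to 33.0 CPM in the other 4 macrophage-scoring clusters. A sum follows its most abundant genes and does not show each of the 7. Fcna had a UMI in 92.7% of the cluster's cells. The MHC class II list summed to 3280 CPM in cluster 18 and 34680 CPM in the macrophage-like class.

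The macrophage-like class followed with 41.5 ± 34.97 CPM (SD, n = 6 pools) and type 2 dendritic cells (cDC2) 34.1 ± 41.9 CPM (SD, n = 6 pools). The macrophage-like class was higher in 5 of 6 pools, so these neighbours do not separate beyond their spread. No Fcna UMI was seen in 606 neutrophils at a median of 2156 UMIs per cell, a depth at which cells that express the gene at a low level can go unseen. The exact binomial 95% bound of 0.607% limits the share of such cells with a UMI, not the share that express Fcna. NK cells, which stand here for cells that should lack the gene, had an Fcna UMI in 0.487% of cells at a median of 3533 UMIs.

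Most Fcna RNA sat in very few cells. Its 1339 UMIs lay in 224 cells, or 3.57% of all cells, and 9 cells held at least 50% of them. The 20 cells with 10 or more Fcna UMIs held 66.9% of the total, and their median of 31803.5 UMIs exceeded the median of either library. Of the 20, 3, 15 and 1 came from the 15-month pools, against 0, 0 and 1 from the 3-month pools. They fell into several classes, with 5 in the macrophage-like class, 5 among cycling cells, 4 in cDC2, 4 in cluster 18, 1 in cluster 1 and 1 in stroma. Of the genes of tissue-resident macrophages, Mrc1 was seen in 18 of these cells, Folr2 in 17, Cd5l in 10, Lyve1 in 7 and Timd4 in 3. Of the serous cavity genes, Saa3 was seen in 8, Prg4 in 7, Alox15 in 4 and Gata6 in 2. The comparison was with the 135 other cells at least as deep as that median, taken by depth alone from all classes, macrophages or not. Among these 135, Mrc1 was seen in 72.6%, Folr2 in 32.6%, Cd5l in 15.6%, Lyve1 in 2.22% and Timd4 in none. Saa3 was seen in 5.19% of them, Prg4 in 1.48%, Alox15 in 6.67% and Gata6 in 26.7%. A doublet score marked 4 of the 20 in its top 6.0%, and the part of doublets in these values was not tested.

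**Figure D2:**
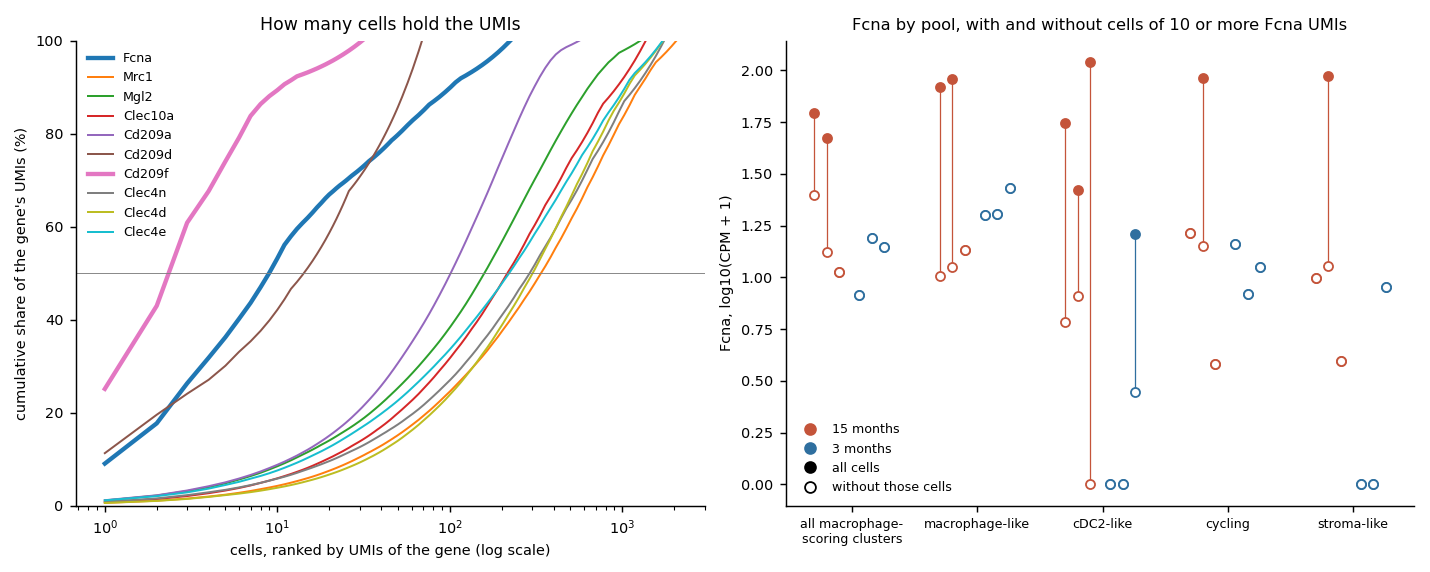
Left, cumulative share of a gene's UMIs (percent) against the number of cells, ranked from the cell with the most UMIs, for Fcna and comparison members. Right, Fcna level in CPM by class and pool, with 15 months left of 3 months; filled circles include all cells, open circles leave out the 20 cells with 10 or more Fcna UMIs, and an open circle alone means that the pool had no such cell. In the macrophage-like class the 5 cells left out all came from 15-month pools, so that the step to the open circles, 9.11 to 12.6 CPM at 15 months, shows how much of the level those cells held.

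Mrc1, the mannose receptor, was highest in the macrophage-like class at 564.8 ± 203 CPM (SD, n = 6 pools). Cluster 0 followed at 309.7 ± 88.0 CPM (SD, n = 6 pools) and was lower in all 6 pools. Cycling cells had 239.0 ± 72.2 CPM, cluster 1 had 137.4 ± 77.4 CPM and cDC2 had 135.0 ± 30.8 CPM (SD, n = 6 pools each), and cluster 1 was above cDC2 in 3 of 6 pools. In cluster 18, where Fcna was highest, Mrc1 reached 27.8 and 72.0 CPM in the first and second 15-month pool. Mrc1 also had a UMI in 24.8% of the cells in the T cell class, in which 54.7% of cells had a UMI of the macrophage gene C1qa. In NK cells these shares were 2.92% for Mrc1 and 11.4% for C1qa. The part of free RNA and of doublets in the T cell value was not tested.

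The galactose-type lectins were highest in cDC2. At a coarser clustering (Leiden resolution 0.3), where no class was named cDC2, the class of mature dendritic cells was highest for both and for Cd209a. Mgl2 averaged 1274 ± 723 CPM in cDC2 and 594.9 ± 551 CPM in the macrophage-like class (SD, n = 6 pools each), with cDC2 higher in all 6 pools. Below them, mature dendritic cells, cluster 0 and cycling cells had 345.2, 336.1 and 275.7 CPM and were not separated by their spread. Clec10a averaged 378.2 ± 98.0 CPM in cDC2 and 113.5 ± 52.7 CPM in the macrophage-like class (SD, n = 6 pools each), again with cDC2 higher in all 6 pools. NK cells had an Mgl2 UMI in 0.73% of cells and a Clec10a UMI in 1.22%. Among macrophage-scoring cells, 82.1% of those with an Mgl2 UMI also had Mrc1, against 49.3% of those without. Among cDC2 the same shares were 56.6% and 18.5%. Median depth differed little between cells with and without Mgl2, at 9858 and 9294 UMIs in macrophage-scoring cells and 10050 and 9280 UMIs in cDC2.

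Cd209a, the DC-SIGN relative used to mark mouse monocyte-derived and type 2 dendritic cells, averaged 967.2 ± 238 CPM in cDC2 and 166.7 ± 62.0 CPM in cycling cells (SD, n = 6 pools each), with cDC2 higher in all 6 pools. A UMI of it was seen in 71.8% of cDC2, 2.05% of the macrophage-like class and 0.73% of NK cells. Cd209d was rare, with 133 UMIs in 69 cells, and cDC2 had 2.39, 17.5 and 8.22 CPM at 15 months and 24.8, 16.6 and 16.9 CPM at 3 months. Its highest class mean was that of NK cells, where 15 of 16 UMIs came from 1 cell of 3-month pool 2. Among cDC2 with a Cd209d UMI 97.9% also had Cd209a, against 69.2% of those without.

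Cd209f was the scarcest member by number of cells, with 235 UMIs in 31 cells. Its 7 cells with 10 or more UMIs held 83.8% of the total and came 1, 3 and 1 from the 15-month pools and 0, 2 and 0 from the 3-month pools. Fcna, Mrc1 and Folr2 were each seen in all 7, Lyve1 in 4, Cd5l in 2, Prg4 in 1, and Timd4, Saa3, Alox15 and Gata6 in 0. The comparison was with the 219 other cells of any class at least as deep as the median of these 7, 27120 UMIs. Among these 219, Fcna was seen in 16.9%, Mrc1 in 74.0%, Folr2 in 32.4% and Lyve1 in 2.28%. The next values are again those of Cd209f. The Cd209f level in the macrophage-like class was 112.5, 20.9 and 0 CPM at 15 months and 0, 3.20 and 3.00 CPM at 3 months. The first 15-month pool had 63 UMIs there, 59 of them in 1 cell, and the second had 76 UMIs in 5 cells; without its 1 cell of 10 or more UMIs the first pool was at 7.29 CPM. Of all cells with Fcna, 6.25% had Cd209f, against 0.281% of cells without Fcna, at medians of 13040 and 7548 UMIs.

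The 3 receptors that signal through the Fc receptor gamma chain were highest in neutrophils. Clec4d averaged 1822 ± 372 CPM in neutrophils (SD, n = 6 pools), and its next levels were 433.4 CPM in cluster 18 (2 pools) and 279.4 ± 72.8 CPM in cluster 1 (SD, n = 6 pools). Clec4e averaged 1360 ± 447 CPM in neutrophils and 455.8 ± 78.3 CPM in non-classical monocytes (SD, n = 6 pools each), with neutrophils higher in all 6 pools. Clec4n averaged 467.2 ± 306 CPM in neutrophils and 186.0 ± 96.5 CPM in the macrophage-like class (SD, n = 6 pools each), with neutrophils higher in 5 of 6 pools. Clec4d had a UMI in 90.4% of neutrophils, which have a median of 2156 UMIs, against 0.973% of NK cells at 3533 UMIs. Clec4d averaged 97.5 CPM in classical and 94.3 CPM in non-classical monocytes, with classical monocytes higher in 2 of 5 pools.

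The neutrophil class joins a pair of clusters whose levels of these receptors are given as a description of clusters made from the same cells. Summed over its 133 cells, the cluster led by Acod1, Il1f9 and Slc7a11 had 1835 CPM of Clec4n, 4066 CPM of Clec4d and 3449 CPM of Clec4e. The cluster led by S100a9 and Retnlg, 473 cells, had 332 CPM of Clec4n, 1392 CPM of Clec4d and 1235 CPM of Clec4e. A UMI of Clec4n was seen in 80.0% of the first and 29.2% of the second when each cell was thinned to 2000 UMIs, and in 82.7% and 31.7% unthinned. The thinning left out 28 and 206 shallower cells of these clusters. Of the 133 cells, 108 came from 15-month pool 2, so the summed values rest on that pool.

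Among macrophage-scoring cells, 65.0% of those with Clec4e also had Clec4d, against 23.8% of those without, at medians of 10880 and 8916 UMIs. Across 89 sums of a class within a pool, Clec4d and Clec4e were each other's nearest member (r = 0.79 on log2(CPM + 1)). These correlations describe sums that share libraries and cell classes. The genes most like Clec4d were Tnfaip2 (0.84), Ninj1 (0.84) and Msrb1 (0.83), and those most like Clec4e were Msrb1 (0.84), Slc16a3 (0.82) and Prdx5 (0.81). Clec4n was most like Lpcat2 (0.77), Lst1 (0.77) and Cd300ld (0.77). The nearest genes of Mrc1 were C1qb (0.86), Dab2 (0.84) and Rab3il1 (0.83), and those of Mgl2 were Clec10a (0.72), Creb5 (0.72) and Dab2 (0.69). Clec10a was most like H2-Ab1 (0.78), Ciita (0.77) and H2-Eb1 (0.77), all of MHC class II presentation, and Cd209a was most like Kmo (0.70), Tnfsf9 (0.67) and Clec10a (0.65). Fcna was most like Ltc4s (0.65), C4b (0.63) and Folr2 (0.61), and Cd209f like Lyve1 (0.58), Fcna (0.54) and Cd163 (0.51). Kmo and Tnfsf9 are among the markers that named cDC2, and C1qb is a macrophage marker.

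Whether the members differed with age outside macrophages was tested in the 6 named classes with at least 10 cells in each pool, on summed counts. Cycling cells are among the 6, although macrophage markers were their second-best list (score 0.99). Dividing macrophages may be in that class, so its tests are not free of the contrast known when the genes were picked. The call rule was edgeR's quasi-likelihood test with Benjamini-Hochberg adjustment over all genes of the class, at an adjusted p under 0.05. Of 23 tests of members in 5 classes, 0 were called and 6 had an unadjusted p under 0.05. The lowest adjusted p in edgeR's quasi-likelihood test was 0.229, for Mgl2 in cycling cells. The unadjusted count was 4 of 7 members tested in cDC2, 1 of 6 in cycling cells, 1 of 4 in stroma, 0 of 3 in neutrophils and 0 of 3 in non-classical monocytes. Fcna, among the 4 in cDC2, passed the filter on low counts only through its 15-month pools. Of all genes tested, the share with an unadjusted p under 0.05 was 10.5% in cDC2, 11% in cycling cells, 10.2% in stroma, 3.13% in neutrophils and 10.7% in non-classical monocytes. In NK cells, where 0.558% of all genes were called, no member passed the filter on low counts. DESeq2 called 1 member, Mgl2 in cycling cells, where it called 10 of 4794 genes. The share of all genes called was 0.199% in cDC2, 0.0211% in cycling cells, 0.223% in neutrophils, 0.399% in non-classical monocytes and 0.0164% in stroma, so few genes of any kind passed.

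In cDC2, 7 of the 10 members were tested, and their median log2 ratio was 0.19 against -0.0025 for all genes there. Of the 7 ratios, 4 were positive and 3 negative. Fcna, among the 4, passed the filter on low counts only through its 15-month pools, so no direction is read from this median. Mgl2 had 935.3, 395.8 and 1192 CPM in the 15-month pools, against 2000, 2279 and 842.2 CPM in the 3-month pools. Its highest 15-month pool lay above the lowest 3-month pool, so the ages overlap. The log2 ratio of 15 over 3 months was -1.09 ± 0.36 (SE, n = 3 pools each), with an adjusted p of 0.310 in edgeR's quasi-likelihood test. The share of cDC2 with an Mgl2 UMI was 32.1% at 15 months and 60.9% at 3 months when thinned to 2000 UMIs, and 42.0% and 69.1% unthinned, with 0 and 1 cells left out. By pool the thinned shares were 50%, 22.7% and 59.1% at 15 months and 73.6%, 66.7% and 53.1% at 3 months. The large second 15-month pool sets the low pooled share, and the pools overlap here too.

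**Figure D3:**
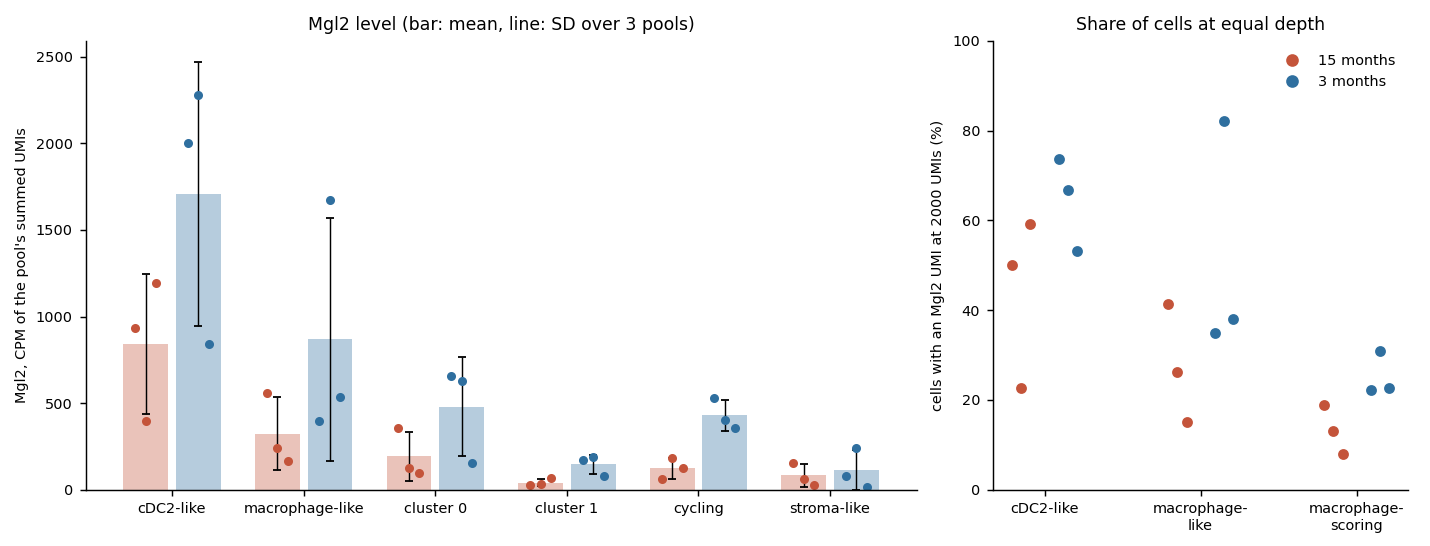
Mgl2 by class, with 15 months left of 3 months. Left, level in CPM, with bars for the mean, error bars for the SD and points for the 3 pools of each age; right, share of cells with an Mgl2 UMI (percent) after thinning to 2000 UMIs, per pool. In cDC2 the pools of both ages overlap, while in macrophage-scoring cells all 15-month pools lie below all 3-month pools.

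The other dendritic cell lectins had smaller differences. Cd209a had 847.0, 723.3 and 877.4 CPM in the 15-month pools of cDC2, against 992.6, 948.0 and 1415 CPM in the 3-month pools. Clec10a had 341.2, 296.0 and 320.6 CPM at 15 months, against 356.3, 386.8 and 568.0 CPM at 3 months. Both were lower in every 15-month pool than in any 3-month pool, as were 4.46% of all genes tested in cDC2. Their log2 ratios were -0.55 ± 0.19 and -0.56 ± 0.20 (SE, n = 3 pools each), with adjusted p of 0.318 and 0.352 in edgeR's quasi-likelihood test. Mrc1, Clec4n and Clec4e in cDC2 had log2 ratios of 0.18, 0.45 and 0.35, with overlapping pools.

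Fcna in cDC2 had 54.9, 25.4 and 108.9 CPM in the 15-month pools, against 0, 0 and 15.1 CPM in the 3-month pools. It was higher in every 15-month pool, as were 13.7% of all genes tested in cDC2. The log2 ratio was 2.82 ± 0.76 (SE, n = 3 pools each; adjusted p = 0.269 in edgeR's quasi-likelihood test). Fcna passed the filter on low counts in cDC2 only through its 15-month pools. Its ratio, p and order of pools were thus selected for high 15-month levels, and no order of the ages is read from them. Without the 4 cDC2 that had 10 or more Fcna UMIs, the levels were 5.07, 7.12 and 0 CPM at 15 months and 0, 0 and 1.79 CPM at 3 months. Of these 4 cells, 3 came from 15-month pools and 1 from a 3-month pool, and they were left out by their Fcna count itself.

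In cycling cells, a class that joins dividing cells of several lineages, Mgl2 had 61.3, 182.3 and 124.8 CPM in the 15-month pools, against 529.5, 402.7 and 353.8 CPM in the 3-month pools. Its 15-month pools were all lower, as were 6.65% of all genes tested there. The log2 ratio was -1.76 ± 0.33 (SE, n = 3 pools each; adjusted p = 0.229 in edgeR's quasi-likelihood test). It was called by DESeq2, by edgeR without 3-month pool 3 (log2 ratio -1.83) and by edgeR with no filter on low counts. In this class these settings called 10 of 4794, 73 of 4937 and 166 of 14079 genes. The other 5 tested members overlapped, among them Cd209a with 131.9 ± 67.9 CPM at 15 months and 201.6 ± 37.0 CPM at 3 months (SD, n = 3 pools each). Macrophage markers were the second-best list of this class, so its Mgl2 values do not stand apart from the macrophage contrast known when the genes were picked. The mix of lineages among cycling cells at each age was not tested.

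In non-classical monocytes, Clec4e had 486.6, 497.2 and 556.3 CPM in the 15-month pools, against 453.9, 329.7 and 411.4 CPM in the 3-month pools. All 15-month pools were higher, as were 9.53% of all genes tested there. The log2 ratio was 0.29 ± 0.16 (SE, n = 3 pools each; adjusted p = 0.518 in edgeR's quasi-likelihood test), and its interval of 2 SE on either side ran between -0.02 and 0.61. Clec4n and Clec4d overlapped between ages there.

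In neutrophils, Clec4e had 1397, 2206 and 1161 CPM at 15 months, against 1023, 1372 and 1003 CPM at 3 months (log2 ratio 0.53 ± 0.30, SE, n = 3 pools each). Clec4n had 265.1, 975.6 and 222.1 CPM at 15 months, against 500, 645.5 and 194.6 CPM at 3 months. Clec4d had 1840, 2317 and 1463 CPM at 15 months, against 1477, 2219 and 1616 CPM at 3 months. The second 15-month pool, with most cells of the Acod1 cluster, was the highest for each of the 3 genes, and the ages overlapped. All 3 adjusted p in edgeR's quasi-likelihood test were 1.00. The log2 ratios of Clec4n and Clec4d were 0.24 and 0.12 over all neutrophils, and -0.34 and -0.21 in the S100a9 cluster alone, so their sign turned with the cluster. The 2 SE interval for Clec4n, between -0.92 and 1.40, leaves a wide range.

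In stroma, Mrc1 had 138.7, 220.9 and 94.5 CPM at 15 months, against 94.5, 63.8 and 100.2 CPM at 3 months, with overlapping pools (log2 ratio 0.82 ± 0.35, SE, n = 3 pools each; adjusted p = 0.465 in edgeR's quasi-likelihood test). Clec4n, Mgl2 and Clec10a in stroma also overlapped between ages.

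**Figure D4:**
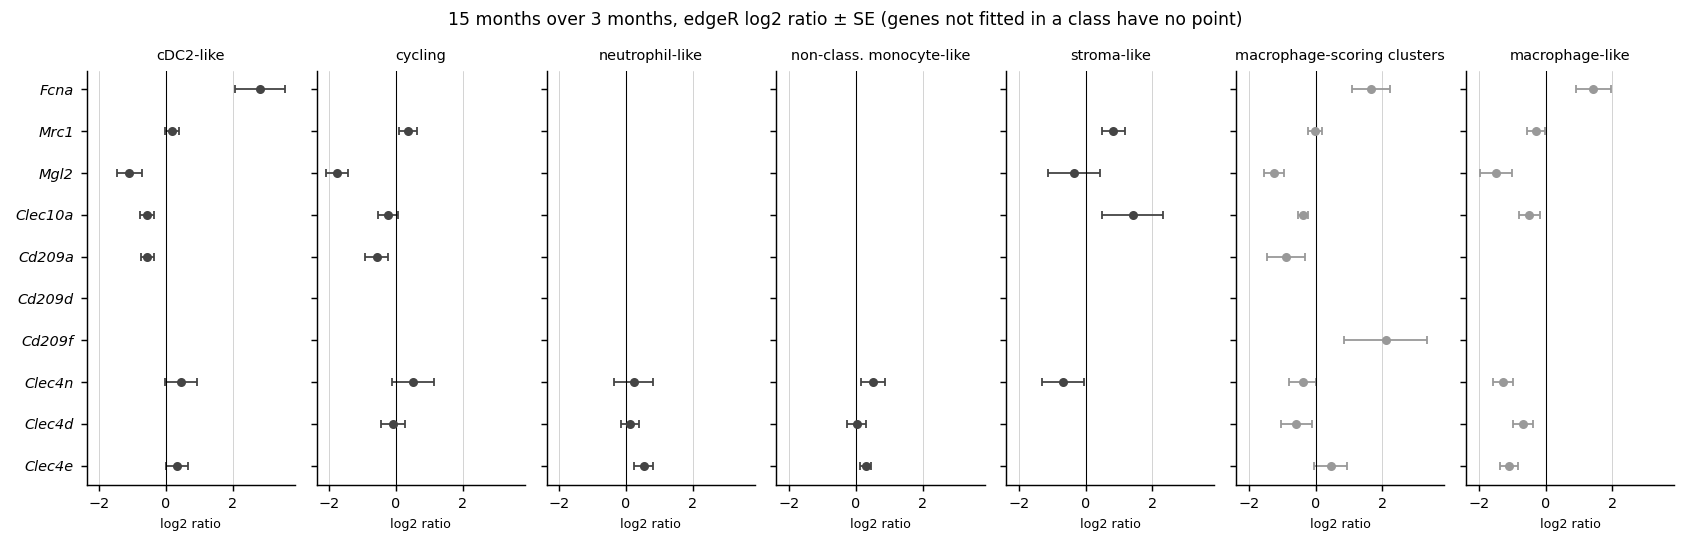
Log2 ratio of 15 over 3 months for each member in each class, with bars of 1 SE from the edgeR fit. Grey panels are macrophage groups, whose values are a description because the genes were chosen on that contrast, and a gene without a point did not pass the filter on low counts. Mgl2 lies below 0 in each class shown in which it was fitted.

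In macrophages the ages are described without a test, since the choice of the genes used this contrast. In macrophage-scoring cells, 9 of 10 members passed the filter, Cd209d being the exception, and their median log2 ratio was -0.37 against 0.01 for all genes. Mgl2 had 213.1, 130.9 and 94.0 CPM in the 15-month pools, against 288.3, 433.4 and 263.9 CPM in the 3-month pools (log2 ratio -1.25 ± 0.30, SE). All 15-month pools were lower, as were 7.1% of all genes there. After thinning to 2000 UMIs, Mgl2 was seen in 18.9%, 13.01% and 7.93% of cells at 15 months, against 22.2%, 30.8% and 22.7% at 3 months, and all 15-month pools were lower. Within the macrophage-like class alone the Mgl2 pools overlapped, with 560.8, 240.7 and 163.2 CPM at 15 months and 396.2, 1672 and 536.2 CPM at 3 months. Within cluster 1 they did not, with 24.9, 32.5 and 66.6 CPM at 15 months and 171.1, 186.6 and 81.5 CPM at 3 months, and 7.08% of all genes in cluster 1 were lower in the same way. Within cluster 0 the Mgl2 pools overlapped, with 354.8, 127.2 and 95.1 CPM at 15 months and 657.7, 630.3 and 151.7 CPM at 3 months. The mix of clusters differed between pools, with 73, 261 and 53 cells of cluster 1 at 15 months and 154, 138 and 44 at 3 months.

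Clec4n in the macrophage-like class had 191.1, 98.3 and 64.7 CPM in the 15-month pools, against 335.7, 201.8 and 224.7 CPM in the 3-month pools (log2 ratio -1.28 ± 0.31, SE). Clec4e there had 17.9, 17.6 and 11.6 CPM at 15 months, against 38.1, 28.8 and 30.95 CPM at 3 months (log2 ratio -1.11 ± 0.27, SE). All 15-month pools were lower for both genes, as were 4.91% of all genes tested in the class. Over all macrophage-scoring cells neither held, with log2 ratios of -0.39 for Clec4n and 0.45 for Clec4e and overlapping pools. In cluster 1, Clec4e had 289.6, 343.8 and 101.1 CPM at 15 months, against 165.1, 97.7 and 81.5 CPM at 3 months, so its ratio there had the other sign (log2 ratio 1.07 ± 0.41, SE).

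Fcna in macrophage-scoring cells had 61.4, 46.4 and 9.66 CPM in the 15-month pools, against 7.26, 14.6 and 13.1 CPM in the 3-month pools (log2 ratio 1.66 ± 0.58, SE). The first and second 15-month pools stood above the 3-month pools and the third did not. Cluster 18 had 11, 22 and 2 cells in the 15-month pools, against 0, 4 and 2 at 3 months. It supplied 72 of 141, 152 of 525 and 11 of 37 Fcna UMIs at 15 months, against 0 of 19, 20 of 34 and 7 of 40 at 3 months. The sums thus mix clusters in unlike proportions, and the part of this mix in the ratio was not tested. Without the 10 cells of 10 or more Fcna UMIs, all from the first and second 15-month pools, the 15-month pools had 23.9, 12.3 and 9.66 CPM against the same 3-month values, and the log2 ratio was 0.25 ± 0.37 (SE). In the macrophage-like class the levels were 82.2, 90.3 and 12.6 CPM at 15 months and 19.0, 19.2 and 26.0 CPM at 3 months with all cells. Its 5 cells of 10 or more UMIs all came from 15-month pools, and without them the 15-month values were 9.11, 10.3 and 12.6 CPM. These cells were left out by their Fcna count itself and none was from 3 months, so the shift could go only one way and no order of the ages is read from it. In cluster 1, Fcna had 13.4, 8.84 and 9.52 CPM at 15 months, against 2.98, 0.592 and 0 CPM at 3 months, higher in every 15-month pool, as were 9.25% of all genes there. These levels are near the floor, at 14, 31 and 8 UMIs against 5, 1 and 0. In the second 15-month pool 1 cell held 13 UMIs, and without it the pool was at 5.23 CPM. Fcna passed the filter on low counts in cluster 1 only through its 15-month pools, so no order of the ages is read there. Over all kept cells, thinned to 2000 UMIs, an Fcna UMI was seen in 1.43% of cells at 15 months and 1.14% at 3 months, and unthinned in 4.05% and 2.66%, with 251 and 170 cells left out.

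Mrc1 in macrophage-scoring cells averaged 272.0 ± 77.5 CPM at 15 months and 262.5 ± 39.2 CPM at 3 months (SD over 3 pools). Its log2 ratio was -0.02, with a 2 SE interval between -0.45 and 0.40. Clec10a had 71.0, 59.1 and 52.5 CPM at 15 months, against 66.8, 81.3 and 74.9 CPM at 3 months, with 1 overlapping pool. Cluster 12, of which 135 of 169 cells came from 15-month pool 3, had too few cells elsewhere for a ratio.

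The proteins that work with these lectins were listed apart from the members. Among 14 lectin pathway partners and other soluble lectins, 15 signalling partners of the activating receptors, 37 other C-type lectin receptors and 11 galectins and Siglecs, no gene was called by edgeR's quasi-likelihood test in the 6 classes above, the macrophage-like class or the macrophage-scoring cells. All genes were called at a share of 0.202% in the macrophage-like class and 0.0765% in macrophage-scoring cells. In macrophage-scoring cells 3 of 15 signalling partners, 3 of 19 tested other lectin receptors, 1 of 9 tested galectins and Siglecs and 1 of 2 tested lectin pathway genes had an unadjusted p under 0.05, as had 15.6% of all genes tested there, so the counts of the larger lists lie near that share. The signalling adaptors Fcer1g, the Fc receptor gamma chain, and Tyrobp, which carries related signals, were abundant in macrophage-scoring cells. Fcer1g averaged 3570 ± 618 CPM at 15 months and 3607 ± 434 CPM at 3 months, and Tyrobp 3240 ± 25.1 CPM at 15 months and 3041 ± 157 CPM at 3 months (SD, n = 3 pools each). The median log2 ratio of the 15 signalling partners was 0.09, against 0.01 for all genes.

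Of the other lectin receptors, Clec4a3, of the same Clec4 family, averaged 356.8 ± 102 CPM at 15 months and 246.2 ± 58.8 CPM at 3 months. Clec12a, an inhibitory receptor for uric acid crystals, averaged 316.4 ± 90.3 CPM at 15 months and 200.4 ± 43.5 CPM at 3 months (SD, n = 3 pools each). The median log2 ratio of the 19 tested was 0.19. Lgals3 and Lgals1, soluble galectins, averaged 3216 ± 1171 and 1141 ± 70.6 CPM at 15 months, against 4947 ± 2582 and 1627 ± 648 CPM at 3 months, with overlapping pools. Of the lectin pathway genes, C4b, a component cleaved by the ficolin-associated protease, had 152.1, 68.2 and 17.8 CPM at 15 months, against 8.02, 33.8 and 18.6 CPM at 3 months. The pools overlap, and C4b is among the top 10 genes of cluster 18. That cluster had 11, 22 and 2 cells at 15 months and 0, 4 and 2 at 3 months. The part of this mix in the C4b levels was not tested. C3, the central complement component, averaged 44.4 ± 5.43 CPM at 15 months and 44.5 ± 23.0 CPM at 3 months (SD, n = 3 pools each). The other 12 genes of that list did not pass the filter in macrophage-scoring cells.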

How the data were processed

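The authors deposited raw gene UMI counts and hashtag counts from Chromium 3' v3.1 libraries. The matrix headers name Cell Ranger 4.0.0 and the submitters' processing notes Cell Ranger 7.0.0, FastQC 0.11.4 and mm10. Doublet removal before deposit is not given in the sources used here.

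Kept barcodes had at least 500 genes, at least 1000 UMIs, a mitochondrial share of at most 10%, and a top hashtag of at least 10 counts and 3 times the second. Cells were scaled to 10000, log-transformed and clustered with scanpy 1.11.5 (2000 variable genes without the members, 30 components, 15 neighbours, Leiden resolution 0.6). A cluster was named if at least 3 markers were seen in at least 20% of its cells, its score was at least 0.5 with a lead of 0.25 and its top 10 genes did not go against the name; these limits were set after the clusters were seen. The automatic doublet threshold marked 1 barcode per library and had not worked, so doublets within a pool stayed in, and an alternative left out the top 6.0%.

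Counts were summed per pool and class and tested with edgeR 4.0.16 (filterByExpr, TMM, quasi-likelihood, SE as the log2 ratio over the root of F). DESeq2 1.42.0, HTODemux in Seurat 5.3.0, other filters, clusterings and left-out pools were alternatives. CPM use all UMIs of the class without TMM. The code was tested on simulated data. Pool numbers only name pools. P-values measure the spread between pools of 1 library. The members and lists were chosen with earlier results of these data known. Named genes are the members, the listed genes called in a class or else the 2 highest per list in macrophages, and the 3 most correlated genes of each member that reached 20 CPM in some class.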

Additional observations from a re-analysis of the deposited data

Results flagged for a closer look

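The log2 ratio of Clec4e between 15 and 3 months was 1.40 higher in non-classical monocytes than in the macrophage-like class. All 15-month pools were above all 3-month pools in the monocytes, as were 9.53% of all genes there. They were below them in the macrophage-like class, as were 4.91% of all genes. The macrophage value belongs to the contrast known when the genes were picked. It rests on 10, 64 and 12 UMIs at 15 months and 22, 9 and 31 at 3 months. The log2 ratio of Clec4e was 0.79 in cluster 0, 1.07 in cluster 1 and 0.45 in macrophage-scoring cells, with the sign of the monocytes. The difference itself was not tested.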

How the results depend on the processing

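Outside the macrophage classes, with cycling cells among the classes tested, edgeR called 0 members in the analysis as described. The count was 1 at Leiden resolution 1.0 (Mgl2 in classical monocytes, where 485 of 6192 genes were called). It was 2 when clustering could use the lectin genes (Clec4e and Mgl2 in classical monocytes, where 379 of 6115 genes were called). Macrophage-scoring cells numbered 1365 and 1536 in these alternatives, against 2390 in the analysis as described. Classical monocyte markers were the second-best list of clusters 0 and 1 (scores 0.85 and 0.86). Cells of these clusters may be in the classical monocyte class there, which was not tested. These calls may thus not be free of the contrast known when the genes were picked. Without a filter on low counts the count of members was 11, with calls over all genes between 15 of 11642 in neutrophils and 197 of 15616 in stroma. With DESeq2 it was 1 (Mgl2 in cycling cells, where 10 of 4794 genes were called). With the pool number as a replicate block the count of members was 1, Fcna in cDC2, where 17 of 5023 genes were called. Fcna had passed the filter there only through its 15-month pools. Of the 4 classes checked, pools of equal number deviated together in NK cells alone (r of 0.130, 0.145 and 0.106), so the numbers were not taken to pair the pools. Leaving out each pool in turn gave 0 to 1, with Mgl2 in cycling cells called without 3-month pool 3, where 73 of 4937 genes were called. Clec4n in neutrophils, with a log2 ratio of 0.24, turned to -0.067 with the replicate block and to -0.34 in the S100a9 cluster alone, and ran between -0.79 and 0.59 with pools left out, below 0 without 15-month pool 2 and without 3-month pool 3. Clec4d there turned to -0.21 in that cluster and ran between -0.048 and 0.29, below 0 without 15-month pool 2. The cause was not tested. Fcna in macrophage-scoring cells went to 0.25 without the cells of 10 or more Fcna UMIs, an alternative chosen after seeing the data that removes 15-month cells by their Fcna count, and ran between 1.26 and 2.11 with pools left out. Fcna in cDC2 ran between 2.12 and 8.57, the highest without 3-month pool 3, where the other 3-month pools have no UMI. Mgl2 in macrophage-scoring cells stayed between -1.62 and -1.02 with pools left out. The highest named class held for 9 or 10 of the 10 members with a pool left out and for 7 to 10 in the other alternatives. Fcna, Cd209d and Cd209f moved to cDC2 in some of them (all 3 with HTODemux), and Mgl2, Clec10a and Cd209a to mature dendritic cells at Leiden resolution 0.3. Of the other ratios of named members outside macrophages, 132 kept their sign and side of the threshold. Depth limits Cd209d and Cd209f, with 133 and 235 UMIs in all.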
